A study of Mus musculus with 6 samples.

Results

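The genes described here carry glucose into the cell and through glycolysis, the pentose phosphate pathway and glycogen metabolism. They were taken by name: 34 symbols were matched to the Ensembl identifiers of the gene tables, and all 34 were found among the 41388 genes listed. By role they are 3 transporters of glucose and lactate, 3 hexokinases, 9 genes of the hexose phosphate steps, 5 genes from glyceraldehyde phosphate to pyruvate, 3 genes of pyruvate fate, 6 genes of the pentose phosphate pathway and 5 genes of glycogen metabolism. The rule itself uses names and no measured value.

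The study asked how neutrophils that depolarized after a calcium signal differ in RNA from those that stayed polarized. Neutrophils from the bone marrow of C57BL/6 mice were loaded with 250 nM DiBAC4(3), an anionic dye that enters cells as their membrane depolarizes and fluoresces there, and were then given 100 nM ionomycin, an ionophore that lets calcium into the cell. Between 2 and 4 minutes later a cell sorter collected 20000 depolarized and 20000 polarized cells straight into lysis buffer, and cDNA was made with a kit for very small RNA inputs (SMARTer Ultra-Low). Each population has 3 libraries, and 3 replicate codes in the titles (here pairs A, B and C, in the order of the codes) tie each depolarized library to a polarized one. Both populations carry the dye and the ionophore, so neither is an unstimulated control. The sources used here do not give the age or number of the mice or whether cells were pooled. With 3 pairs the p-values cover the spread between these pairs only, and that spread is estimated in part from all genes together. All libraries are labelled run 2 except the depolarized library of pair B, labelled run 1.

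Glycolysis splits glucose into pyruvate and yields ATP without oxygen. Neutrophils are known for relying on it, since they hold few mitochondria. The pentose phosphate pathway branches off at glucose 6-phosphate and makes NADPH, which the neutrophil NADPH oxidase spends on the oxidative burst. That oxidase moves electrons across the plasma membrane and so depolarizes it. Glycogen is the cell's stored glucose, built by glycogen synthase and branching enzyme and released by glycogen phosphorylase.

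The libraries held between 16904969 and 20381489 counts on genes, and between 15527 and 16005 genes had at least 1 count. A set of 8 neutrophil markers summed to 181953 to 221974 CPM (counts scaled to a library's total) in the polarized and 161559 to 181121 in the depolarized libraries, and none of the 8 was called different. A set of 8 markers of early neutrophils, among them Mpo and Elane, summed to 2500 to 4790 CPM in the polarized and 948 to 2222 in the depolarized libraries, and edgeR called 8 of 8 lower in depolarized cells. Monocyte markers summed to 105 to 115 CPM against 160 to 169 and macrophage markers to 94.3 to 122 against 110 to 152, but 1 gene made up most of each sum, Csf1r (mean 106 against 163 CPM) and Adgre1 (78.4 against 113). The other tested members of both sets had fitted log2 differences below 0, from -3.22 for Ccr2 to -0.78 for Cd5l, and none passed edgeR's test. Markers of B and plasma cells summed to 443 to 525 against 478 to 962, those of eosinophils and basophils to 31.4 to 414 against 33.4 to 153 (Il5ra had 0 counts in the polarized libraries), and erythroid markers to 39.4 to 62.9 against 26.9 to 96.1. Markers of T and NK cells summed to 21.9 to 28.2 against 16.4 to 23.0, with Ncr1 at 0 counts in the polarized and Cd8a at 0 in the depolarized libraries. In these last 6 sets 1 gene was called, Nkg7, lower in depolarized cells. The part that the early neutrophil difference or any other cell type has in the values below was not tested. In sorted bulk samples like these, fewer cells of a type and less RNA per cell cannot be told apart. In scale, polarized library C stood apart, with a TMM factor (edgeR's correction of library size for composition) of 0.88 against 0.97 to 1.08 in the other libraries. It also had the highest Mpo (146 CPM, against 13.4 and 19.8 in polarized A and B) and Elane (109 CPM, against 13.1 and 39.2), and the share of mitochondrial counts was 0.743% and 0.699% in the libraries of pair C against 0.547% to 0.579% in the others.

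The 34 genes together took between 1.60% and 1.99% of all counts in a library. Levels are compared between genes as RPKM, CPM divided by the length of the gene model. Taldo1, transaldolase of the pentose phosphate pathway, led at a mean of 1901 RPKM over the 6 libraries and ranked 32 among all 41388 genes. Pkm (pyruvate kinase) followed at 981 RPKM, Aldoa (aldolase A) at 667, Pygl (glycogen phosphorylase of the liver form) at 368, Pgd (6-phosphogluconate dehydrogenase) at 333 and Slc2a3 (the glucose transporter GLUT3) at 275. Pdk1 (0.166 RPKM) and Pfkm (0.0768 RPKM) stood at the other end. The order was not even along a pathway. Neighbouring steps of glycolysis lay far apart, with Pkm between 95.4 and 141 times Gapdh and Aldoa between 26.8 and 39.6 times Tpi1 in RPKM within each library. Such comparisons between genes depend on the length used. The gene model had 2599 bases for Pkm, 2565 for Gapdh, 2754 for Aldoa, 2209 for Tpi1 and 3770 for Pgls. The longest coding transcript had 2432, 1273, 1549, 1607 and 893.

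**Figure D1:**
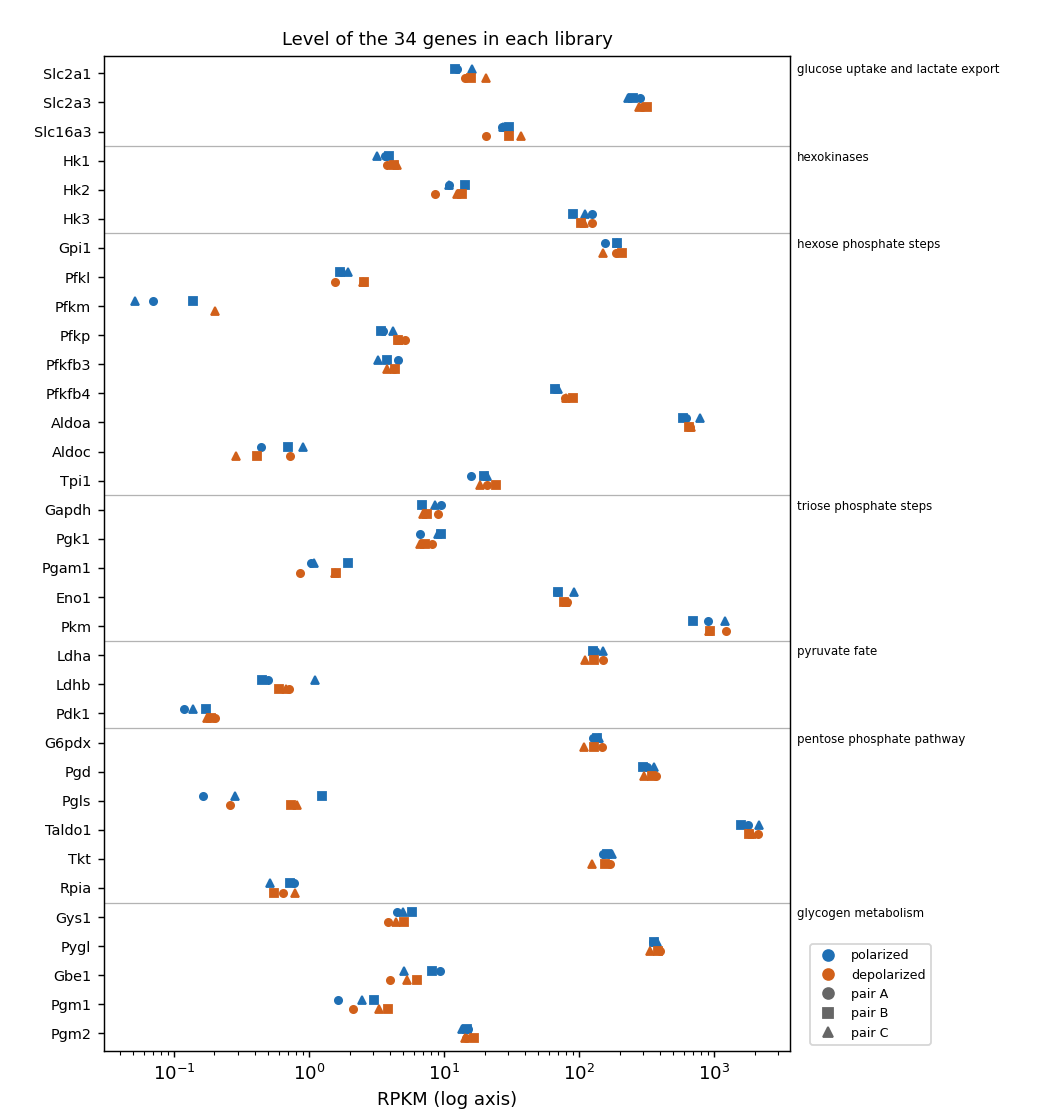
RPKM of each of the 34 genes on a log axis, grouped by role; blue marks the 3 polarized and orange the 3 depolarized libraries, and the shape gives the pair. Taldo1, Pkm and Aldoa lie far to the right and Pfkm and Pdk1 far to the left, while the 2 colours of one gene lie close together; a library with 0 counts (Pfkm, depolarized A and B) has no point.

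Between depolarized and polarized cells no gene of the 34 passed the test. The fit with edgeR's quasi-likelihood test on the counts, with the pair as a block and Benjamini-Hochberg adjustment over 9971 genes, took in 33 of the 34 and called 0 higher and 0 lower at an adjusted p under 0.05; in the whole table it called 8 genes higher (0.0802% of those tested) and 24 lower (0.241%), 0.321% in all. DESeq2 with the same block also called 0 of the 33, and 0.391% of all genes. At an unadjusted p under 0.05 there was 1 gene of the 33, Gbe1, against 6.58% of all genes. The fitted differences (log2, depolarized over polarized) ran from -0.61 for Aldoc to 0.33 for Pdk1, with 15 above and 18 below 0 and a median of -0.01; over all genes tested the median was -0.0022. Both ends of that range rest on low counts: Aldoc (215 counts in all) stood at -1.31 with pair A left out and at -0.0021 with pair C left out, and Pdk1 (145 counts in all) ran from 0.097 to 0.47 with 1 pair left out. The 95% interval lay within 1.5-fold in either direction for 18 of the 33 genes and within 2-fold for 28, so for the other 5 the libraries leave room for differences beyond 2-fold.

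The libraries of the 2 groups did not overlap in CPM for 3 of the 33 genes, Pfkp, Pfkfb4 and Pdk1, all higher in depolarized cells, where 7.28% of all genes tested had such a gap upward and 3.14% downward. The difference had the same sign in all 3 pairs for 8 genes: 7 were higher in each depolarized library than in its partner (Slc2a1, Slc2a3, Hk1, Pfkp, Pfkfb4, Pdk1 and Pgm1) and 1 was lower (Gys1). Over all genes tested 18.3% were higher in all 3 pairs and 8.91% lower. These pair differences come from log2(CPM + 0.5), without the TMM factors. The gaps between groups, here and below, also come from CPM without those factors. The factor of 0.88 raises polarized C on the fit's scale. With CPM divided by the factors, the gaps of Pfkp and Pfkfb4 close through polarized C, while that of Pdk1 stays.

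**Figure D2:**
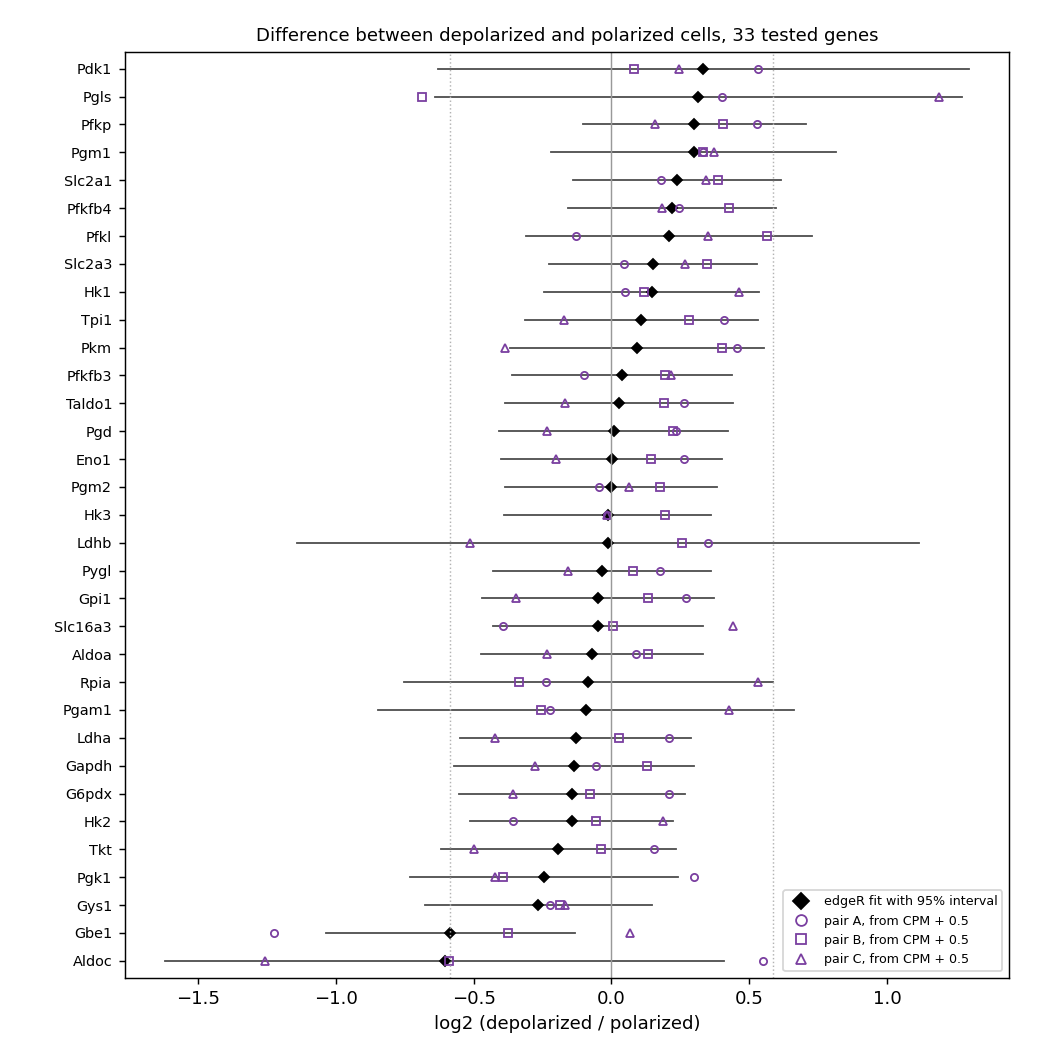
Fitted log2 difference of each of the 33 tested genes (black diamond) with its 95% interval (line), and the difference within pairs A, B and C from log2(CPM + 0.5) (open symbols); dotted lines mark 1.5-fold. All intervals except that of Gbe1 include 0, and the pairs differ in sign for most genes.

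Glucose enters through the facilitative transporters of the Slc2a family. Slc2a3 (ENSMUSG00000003153, chr6:122727809-122801640 in GRCm38), which encodes GLUT3, had 2046, 1812 and 1666 CPM in polarized libraries A, B and C, and the depolarized libraries had 2109, 2302 and 2003. Each depolarized library was above its partner, and the groups overlapped only through polarized A and depolarized C. The fitted log2 difference was 0.15 (SE 0.18, 95% interval -0.23 to 0.53, edgeR adjusted p = 1). Slc2a1, which encodes GLUT1, stood far lower, at 13.6 ± 2.17 RPKM in polarized and 16.9 ± 3.21 in depolarized cells (SD, n = 3 each) against 254 ± 26.4 and 295 ± 20.9 for Slc2a3. Among 10 measured glucose transporters Slc2a3 took 63.0% ± 3.80 of the summed RPKM in polarized and 60.7% ± 2.13 in depolarized cells (SD, n = 3 each). The next was not Slc2a1 (3.39% and 3.48%) but Slc2a6, which encodes GLUT6, at 33.5% ± 3.27 and 35.8% ± 1.84 (19.6% by counts, without length, over all 6 libraries). Slc2a6 had 466, 372 and 466 CPM in polarized and 577, 545 and 552 in depolarized cells. In CPM all 3 depolarized libraries were above all polarized ones, as for 7.28% of all genes tested. Divided by the TMM factors, polarized C lay above depolarized B. The fitted log2 difference was 0.30 (SE 0.18, edgeR adjusted p = 0.923).

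Lactate leaves through monocarboxylate transporters. Slc16a3, which encodes MCT4, had 144, 161 and 146 CPM in polarized libraries A, B and C and 110, 162 and 199 in their depolarized partners. The lowest and the highest of the 6 values are both depolarized libraries, so the groups overlap fully; the fitted log2 difference was -0.05 (SE 0.18). Slc16a3 took 98.8% ± 0.889 of the RPKM of 4 measured monocarboxylate transporters in polarized and 97.9% ± 0.924 in depolarized cells.

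Hexokinases trap glucose by phosphorylating it. Hk3 (ENSMUSG00000025877, chr13:55005985-55021385), a form of blood cells, had 463, 335 and 408 CPM in polarized libraries A, B and C, against 458, 383 and 403 in depolarized cells. The values follow the pair more than the group, with B lowest in both. Its fitted log2 difference was -0.01 (SE 0.18, 95% interval -0.39 to 0.36). Hk3 held 87.2% ± 3.36 of the hexokinase RPKM in polarized and 87.5% ± 2.98 in depolarized cells. Hk2 held 9.89% and 9.12%, and Hk1, the form found in most tissues, 2.93% and 3.27%. Fitted differences were -0.14 for Hk2 and 0.15 for Hk1 (SE 0.17 and 0.18).

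The next steps turn glucose 6-phosphate into triose phosphates. Gpi1, glucose 6-phosphate isomerase, had a mean of 180 RPKM. Phosphofructokinase, which commits the sugar to glycolysis, was among the lowest steps by RNA. Pfkp, the platelet form, led its family with 66.4% ± 1.30 of the RPKM in polarized and 68.0% ± 7.56 in depolarized cells, yet its mean was only 4.26 RPKM. Pfkl, the liver form, made up 32.0% and 31.1%, though 18.0% by counts and 19.5% per base of the longest coding transcript over all 6 libraries. Pfkm, the muscle form, had 24 counts in all 6 libraries, too few for the test. Pfkp (ENSMUSG00000021196, chr13:6579768-6648777) had 33.4, 32.2 and 39.4 CPM in polarized and 48.4, 42.7 and 44.0 in depolarized cells. In CPM every depolarized library lay above every polarized one. Divided by the TMM factors, polarized C lay above depolarized B and C. The fitted log2 difference was 0.30 (SE 0.19, 95% interval -0.10 to 0.71, edgeR adjusted p = 0.942).

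The enzymes that make and break fructose 2,6-bisphosphate, the allosteric activator of phosphofructokinase, are encoded by the Pfkfb genes. Pfkfb4 (ENSMUSG00000025648, chr9:108991902-109032223) had 263, 265 and 277 CPM in polarized and 312, 357 and 315 in depolarized cells. In CPM the polarized libraries sat close together and all below the depolarized ones. Divided by the TMM factors, polarized C lay above depolarized C. The fitted log2 difference was 0.22 (SE 0.18, 95% interval -0.16 to 0.60, edgeR adjusted p = 1). Pfkfb4 held 94.4% ± 0.951 of the family's RPKM in polarized and 95.1% ± 0.261 in depolarized cells, and Pfkfb3, a form studied widely in activated immune cells, held 5.40% and 4.75%. The share of Pfkfb3 rests on the gene length used: over all 6 libraries it was 8.66% by counts and 12.9% per base of the longest coding transcript, a measure chosen after seeing the data. At a mean of 75.4 RPKM Pfkfb4 was also well above all 3 phosphofructokinase genes.

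Aldolase splits fructose 1,6-bisphosphate. Aldoa (ENSMUSG00000030695, chr7:126795234-126800751) had 1724, 1634 and 2185 CPM in polarized libraries A, B and C, against 1835, 1793 and 1856 in depolarized cells. The polarized values spread more widely than the depolarized ones and enclose them, with polarized C the highest of all. The fitted log2 difference was -0.07 (SE 0.19). Aldoa made up 99.9% of the RPKM of the 3 aldolase genes in both groups, while Aldoc, the brain form, had 0.946 to 2.96 CPM. Tpi1, triose phosphate isomerase, had a mean of 20.1 RPKM.

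**Figure D3:**
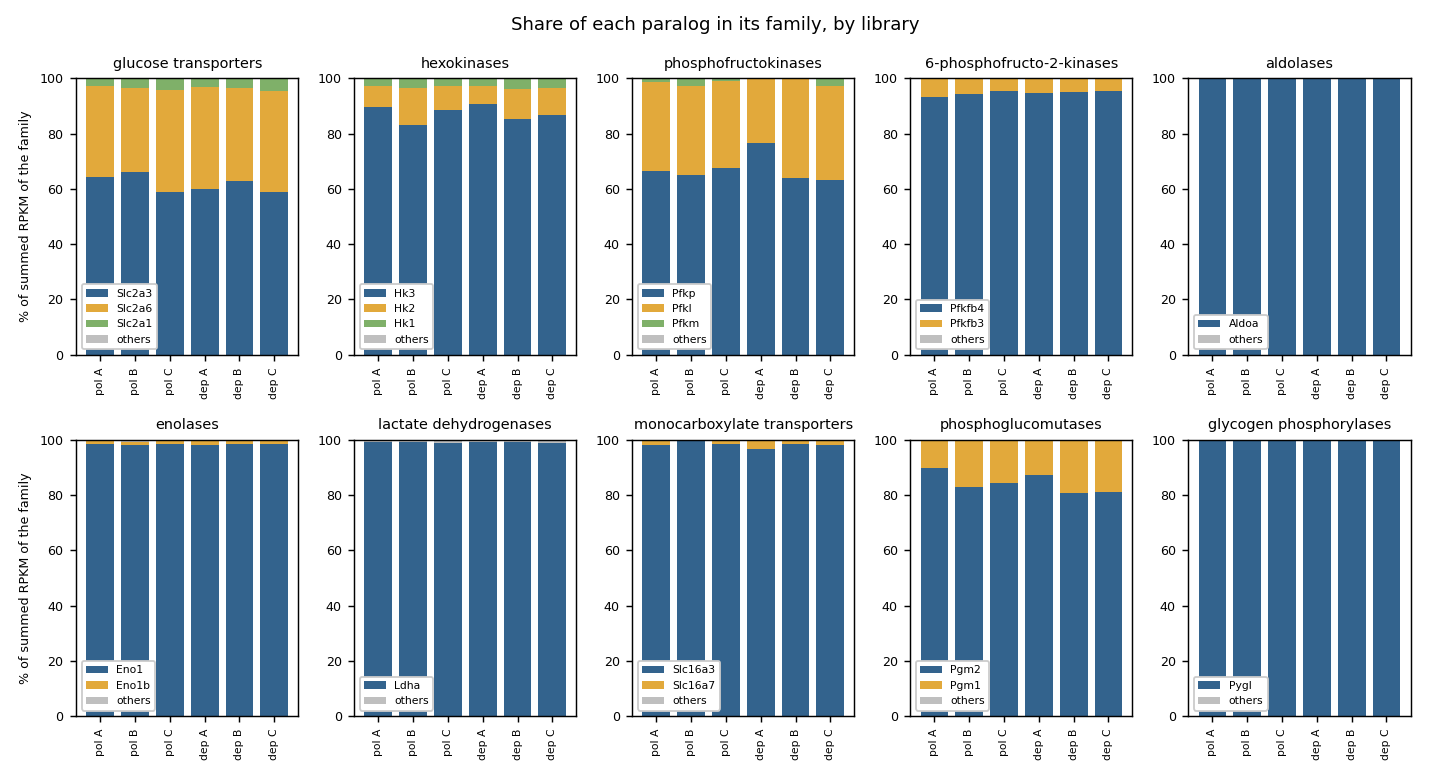
Share of each gene in the summed RPKM of its family, one bar per library (pol, polarized; dep, depolarized; A to C, pairs), with genes under 1% in both groups joined as others. One gene holds most of each family, least so for the glucose transporters, where Slc2a3 has 58.7% to 66.0%, and for phosphofructokinase, where Pfkp has 63.3% to 76.7%.

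In all 10 families plotted the same gene led in each of the 6 libraries, and in all 10 the shares of that gene overlapped between polarized and depolarized cells. The leading shares ranged from those of Slc2a3 and Pfkp up to 99.8% in polarized cells for Pygl and 99.9% for Aldoa. These are choices between genes. The tables count whole genes, so splice forms of a single gene, such as the M1 and M2 forms of Pkm, are not resolved.

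From glyceraldehyde phosphate to pyruvate the 5 genes differed widely in level. Gapdh, often used as a reference gene, had a mean of only 8.07 RPKM, Pgk1 (phosphoglycerate kinase) 7.89 and Pgam1 (phosphoglycerate mutase) 1.35, while Eno1 (enolase) had 78.3 and Pkm 981. Some of these genes have many processed pseudogenes, and reads that match several places can be lost or moved in counting. The share of each gene's longest coding transcript that recurs elsewhere was therefore measured as exact matches of 50-base windows to transcripts of other genes in GENCODE M21. Of the windows of Gapdh 90.4% recur, in 222 other genes of which 213 are pseudogenes. The share was 72.2% for Eno1 (9 other genes), 68.0% for Pgk1 (5), 41.5% for Pgam1 (4), 30.5% for Pkm (7) and 7.51% for Tpi1 (2). The sources used here do not say how the counting treated reads with several matches, and the part of shared sequence in these levels was not tested. Over the 6 libraries Gapdh had 2343 counts, Eno1 47496 and Pkm 289544. The listed genes that share windows with each had, over their whole length, 17088 counts for Gapdh, 247 for Eno1 and 0 for Pkm. For Pgk1 they had 12 and for Pgam1 4, and none is listed for Tpi1. The sum for Gapdh includes genes that are not pseudogenes, such as Peli2 with 1618. The coding windows below are printed to show what is shared; each is the sense strand of GRCm38, 5′ to 3′, and the whole run recurs letter for letter in other annotated transcripts, 84 genes for Gapdh, 3 for Pgam1, 5 for Eno1, 4 for Pkm and 1 for Tpi1.
Gapdh exon 4, chr6:125162898-125162947, minus strand: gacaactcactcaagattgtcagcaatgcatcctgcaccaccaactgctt
Pgam1 exon 3, chr19:41916679-41916728, plus strand: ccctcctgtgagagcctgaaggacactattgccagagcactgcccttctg
Eno1 exon 7, chr4:150245115-150245164, plus strand: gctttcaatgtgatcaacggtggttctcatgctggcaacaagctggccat
Pkm exon 5, chr9:59669002-59669051, plus strand: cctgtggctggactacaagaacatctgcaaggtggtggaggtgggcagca
Tpi1 exon 3, chr6:124812656-124812705, minus strand: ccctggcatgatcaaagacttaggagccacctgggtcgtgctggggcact

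**Figure D4:**
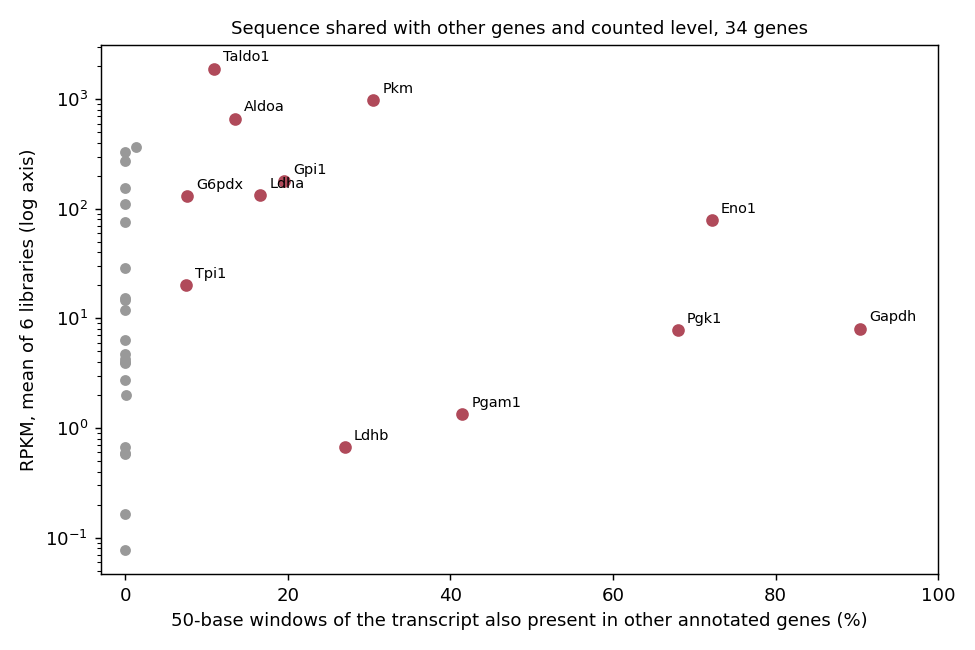
Share of 50-base transcript windows found in other annotated genes (horizontal axis, %) against mean RPKM of the 6 libraries (vertical log axis) for the 34 genes; red points with names have a share over 5%. Gapdh, Pgk1 and Pgam1 lie at the lower right, Eno1 and Pkm higher up, and genes that share no window, such as Pfkm and Pdk1, along the left edge.

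Pkm (ENSMUSG00000032294, chr9:59656368-59679375) had 2340, 1830 and 3115 CPM in polarized libraries A, B and C and 3207, 2415 and 2387 in depolarized libraries A, B and C. Depolarized A and B were above their partners and depolarized C was below its own, and the groups overlap. The fitted log2 difference was 0.09 (SE 0.22, 95% interval -0.37 to 0.55, edgeR adjusted p = 1). Eno1 had 368, 379 and 493 CPM in polarized and 441, 418 and 429 in depolarized cells. For Eno1 polarized C was the highest library and the other polarized libraries the lowest, and the fitted log2 difference was 0.0013 (SE 0.19). Gapdh had 24.2, 17.6 and 21.9 CPM in polarized and 23.3, 19.2 and 18.0 in depolarized cells. The 2 groups cover nearly the same range, with a fitted log2 difference of -0.14 (SE 0.21). Pgk1 had a fitted difference of -0.24 (SE 0.23), and Pgam1, with 273 counts in all, one of -0.09 (SE 0.36).

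Pyruvate is reduced to lactate by lactate dehydrogenase or enters mitochondria. Ldha had 393, 381 and 446 CPM in polarized libraries A, B and C, against 453, 388 and 333 in depolarized cells. The lowest and highest values are both depolarized libraries, and the fitted log2 difference was -0.13 (SE 0.20). Ldha held 99.2% ± 0.182 of the RPKM of the 3 lactate dehydrogenase genes in polarized and 99.2% ± 0.159 in depolarized cells. Pdk1, a kinase that shuts off pyruvate dehydrogenase, was low, with 0.931, 1.35 and 1.07 CPM against 1.57, 1.46 and 1.36. The groups did not overlap. With 145 counts in all, the fitted log2 difference was 0.33 (SE 0.46, edgeR adjusted p = 1).

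The pentose phosphate pathway held the gene with the highest level of the 34. Taldo1 (ENSMUSG00000025503, chr7:141392199-141402968) had 3559, 3169 and 4327 CPM in polarized libraries A, B and C, against 4267, 3619 and 3846 in depolarized cells. Polarized C was the highest library and polarized B the lowest, so the groups overlap. The fitted log2 difference was 0.03 (SE 0.20, 95% interval -0.39 to 0.44, edgeR adjusted p = 1). Taldo1 stood at 1.73 to 2.25 times the RPKM of Pkm in each of the 6 libraries.

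Both NADPH-making steps were also well covered. G6pdx, glucose 6-phosphate dehydrogenase, had 394, 420 and 430 CPM in polarized and 455, 398 and 336 in depolarized cells, and Pgd had 2049, 1918 and 2310 against 2407, 2239 and 1966. Both genes were lower in depolarized C than in its partner and higher in depolarized A. Fitted log2 differences were -0.14 for G6pdx (SE 0.19) and 0.0078 for Pgd (SE 0.20). Tkt, transketolase, had a mean of 156 RPKM and a fitted difference of -0.19 (SE 0.20). In contrast Pgls, 6-phosphogluconolactonase, the enzyme between G6pdx and Pgd, had 0.587 RPKM, and Rpia, ribose 5-phosphate isomerase, 0.665. Neither shared any 50-base window (the measure used for Gapdh above) with genes elsewhere, though 20.6% of the Pgls exon bases overlap Fam129c, which had 2 counts in all. The Pgls values ran from 0.621 to 4.76 CPM within the polarized group alone, and its 95% interval of -0.64 to 1.27 leaves its direction unresolved.

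In glycogen metabolism the phosphorylase far exceeded the enzymes that build glycogen. Pygl (ENSMUSG00000021069, chr12:70190811-70231488) had 1347, 1389 and 1441 CPM in polarized and 1520, 1468 and 1293 in depolarized cells. The polarized values lie inside the depolarized range, and the fitted log2 difference was -0.03 (SE 0.19, 95% interval -0.43 to 0.36). Its mean was 368 RPKM, against 4.76 for Gys1 (glycogen synthase) and 6.40 for Gbe1 (branching enzyme). Of the genes named phosphoglucomutase, Pgm2 had 39.3, 38.5 and 35.6 CPM against 38.1, 43.5 and 37.3. The groups overlap, and Pgm2 took 85.7% ± 3.65 of the RPKM of these genes in polarized and 83.1% ± 3.57 in depolarized cells. The genes are grouped by name, and which of them acts on glucose phosphates was not measured. Symbols follow the current names: Pgm1 is ENSMUSG00000025791 on chromosome 4 and Pgm2 is ENSMUSG00000029171 on chromosome 5, and older mouse sources use them the other way round.

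Gbe1 (ENSMUSG00000022707, chr16:70313949-70569716) had the lowest p of the 33. It had 50.5, 44.0 and 27.2 CPM in polarized libraries A, B and C, against 21.3, 33.8 and 28.6 in depolarized cells. Depolarized A was far below its partner, depolarized B was lower as well, and in pair C the values were nearly equal, so the groups overlap. The pair differences were -1.22, -0.38 and 0.07, and the fitted log2 difference was -0.58 (SE 0.21, 95% interval -1.04 to -0.13, unadjusted p = 0.0142, edgeR adjusted p = 0.506), which did not pass. Gys1 was lower in each of the 3 depolarized libraries, with 21.6, 27.8 and 23.7 CPM against 18.4, 24.4 and 21.0. Its groups overlap, and the fitted log2 difference of -0.26 (SE 0.19, edgeR adjusted p = 0.995) did not pass either. Of the Gys1 exon bases 6.47% lie opposite Ruvbl2, and the sources used here do not give the strand setting of the counting; the same holds for G6pdx, with 13.6% opposite Ikbkg, and Gpi1, with 16.5% opposite Gm26762.

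The 3 pairs did not move alike. The median difference of the 33 genes was 0.18 in pair A, 0.13 in pair B and -0.01 in pair C, where all genes tested had -0.06, 0.03 and 0.21. All pair values here come from CPM without the TMM factors, so they include the scale of each library. The factors were 0.88 for polarized C and 1.03 for depolarized C, which lowers pair C differences on the fit's scale. In pairs A and B 22 and 23 of the 33 genes were higher in the depolarized library, and in pair C 16. Of all genes tested, 43.8%, 53.5% and 66.2% were higher in pairs A, B and C. The pattern of higher in A and B and lower in C was seen for 10 of the 33 genes (30.3%), Gpi1, Aldoa, Tpi1, Eno1, Pkm, Ldha, Ldhb, Pgd, Taldo1 and Pygl, and for 11.5% of all genes tested. It holds 5 of the 6 genes named above as highest by RPKM, all but Slc2a3. The pattern was noticed in these data, and pair C holds the polarized library with the low TMM factor of 0.88 and the high Mpo and Elane described above; the part of that library was not tested.

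Leaving out pair C changed the calls. With pairs A and B alone edgeR called 5 of the 33 genes (15.2%), where 10.1% of all 10102 genes tested were called, 4.95% higher and 5.13% lower. Pkm, at a log2 difference of 0.44, had an edgeR adjusted p of 0.000483, Pfkp (0.49) one of 0.00612, Pfkfb4 (0.35) one of 0.0193 and Tpi1 (0.36) one of 0.0497, all higher in depolarized cells. Gbe1 was lower at -0.80 (edgeR adjusted p = 1.42e-06). A fit with 1 pair left out has little spread of its own for each gene. All edgeR fits here, the main fit included, draw on the spread shared across genes. The p-values without pair C, here and below, therefore lean on it. In the pair left out, the CPM differences were -0.38 for Pkm and -0.17 for Tpi1, opposite in sign to the fit. They were 0.07 for Gbe1, 0.16 for Pfkp and 0.18 for Pfkfb4. These differences are without the TMM factors, which the fit uses and which were 0.88 for polarized C and 1.03 for depolarized C. On the fit's scale pair C differences lie lower. With CPM divided by the factors, depolarized C lay below polarized C for Gbe1 and, by little, for Pfkp and Pfkfb4. That is the sign of the fit for Gbe1 and the opposite one for Pfkp and Pfkfb4. Under the other settings tried, none of the 5 was called: adjusted p ran from 0.413 to 1 for Gbe1 and from 0.794 to 1 for the other 4. Those settings called few genes of any kind: 0.00% with no replicate block, 0.0602% with totals only, 0.132% with a stricter filter, 0.301% with robust edgeR, 0.321% with RLE factors, 0.448% without pair B, 0.664% with no filter on low counts and 0.986% without pair A.

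Other genes of the pathways were read from a longer list. Its 109 genes of glucose transport, glycolysis and gluconeogenesis, pyruvate entry, the pentose pathway, glycogen and their regulators gave 68 for the test. Of these edgeR called 0 higher and 0 lower, where it called 0.321% of all genes, and 8 (11.8%) had an unadjusted p under 0.05, against 6.58% of all genes. In all 3 pairs 13 (19.1%) were higher and 7 (10.3%) lower, close to the 18.3% and 8.91% of all genes. The lowest p belonged to Adpgk (ENSMUSG00000025236, chr9:59291572-59316199), a glucokinase that uses ADP in place of ATP. Adpgk had 254, 380 and 156 CPM in polarized libraries A, B and C, against 140, 189 and 128 in depolarized cells. Each depolarized library was below its partner, though depolarized B exceeded polarized C. The fitted log2 difference was -0.78 (SE 0.18, 95% interval -1.17 to -0.40, edgeR adjusted p = 0.108). DESeq2 with the block called Adpgk (adjusted p = 0.00938), as did edgeR without the filter on low counts (adjusted p = 0.0121) and without pair C (adjusted p = 6.87e-14), whereas adjusted p was between 0.0573 and 1 under the remaining settings. The mean level of Adpgk was 84.1 RPKM, against 111 for Hk3.

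The next 5 by p did not pass either. Fbp1, fructose bisphosphatase of gluconeogenesis, had a fitted log2 difference of -0.87 (SE 0.31, edgeR adjusted p = 0.496) and was lower in all 3 pairs. Gaa, the lysosomal enzyme that degrades glycogen, had 1.60, 2.23 and 1.12 CPM in polarized and 2.55, 3.75 and 3.02 in depolarized cells. All depolarized libraries were above the polarized ones, on 266 counts in all (log2 difference 0.87, SE 0.36, edgeR adjusted p = 0.652). Prkab2, a subunit of the energy sensor AMPK, had a log2 difference of 0.79, and Pdp2, a phosphatase that activates pyruvate dehydrogenase, and Slc35b4, a nucleotide sugar transporter, had -1.48 and -1.34 on 111 and 92 counts in all.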

How the data were processed

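RNA of 6 sorted neutrophil samples was analysed. Reads were processed with STAR 2.0.4b and featureCounts 1.45 against GRCm38, per the submitters' processing notes; the sources used here do not say how reads with several matches, strands or splice forms were treated. The authors deposited per gene a raw count, CPM and RPKM; recomputing the deposited CPM from the counts gave the same values. Symbols were found for 40254 of 41388 identifiers. The genes and lists were chosen with earlier results of these data known. Genes named with every library's CPM are those called or with unadjusted p under 0.05, the highest by RPKM of each role and family, and those described after their values were seen; of other pathway genes, the 6 lowest p. Counts were filtered (filterByExpr), TMM-scaled and fitted with edgeR 4.0.16 (R 4.3.3), glmQLFTest, with the pair as a block, since the design text calls the samples biological replicate pairs. Deviations of paired libraries correlated at 0.08 (A), 0.27 (B) and 0.03 (C). The script was tested on simulated counts. Errors are SD over 3 libraries or the fit's SE. A floor of 3 counts over a group is 0.0536 (polarized) or 0.0531 CPM (depolarized), covering counting error only. Alternatives were no block, RLE factors (edgeR's form of DESeq2's size factors), totals only, no filter, a stricter filter (5 CPM in 3 libraries), robust edgeR, DESeq2 1.42.0, and each pair left out.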

Additional observations from a re-analysis of the deposited data

How the results depend on the processing

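None of the 33 tested genes was called under no replicate block, RLE factors, library totals only, no filter, the stricter filter (27 of them tested), DESeq2 or robust edgeR; the report gives the calls without pair C. With no replicate block, 0 genes of the whole table were called higher and 0 lower, and 511 had an unadjusted p under 0.05; the numbers in the titles pair the samples, and the block changed no call of the 33. Counts of higher and lower calls over all genes were 0 and 6 with totals only, 50 and 96 with no filter, 3 and 5 with the stricter filter, and 16 higher with DESeq2. Leaving out 1 pair gave 9 to 500 higher and 36 to 518 lower calls; of the 33 it gave 0 to 4 higher and 0 to 1 lower, and of the other pathway genes 0 to 2 higher and 0 to 3 lower, against 1 lower with no filter and 1 with DESeq2. These upper ends are all without pair C; the cause was not tested.

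Totals only, which moved the median of all genes to 0.06, turned the log2 difference of Slc16a3 (0.019), Hk3 (0.055), Gpi1 (0.019), Ldhb (0.058), Pygl (0.033) and Pgm2 (0.065). Near 0, the sign also turned for Eno1 (-0.028 with no replicate block, -0.0044 with the stricter filter), Pgd (-0.0021 with no replicate block), Ldhb (0.0056 with DESeq2) and Pgm2 (4.8e-05 with RLE, 0.0062 with no filter, 9.2e-05 with DESeq2). Leaving out 1 pair turned the sign of 20 genes, with these ranges: Slc16a3 -0.18 to 0.094, Hk3 -0.10 to 0.10, Gpi1 -0.24 to 0.21, Pfkfb3 -0.021 to 0.079, Aldoa -0.18 to 0.12, Tpi1 -0.075 to 0.36, Gapdh -0.25 to 0.047, Pgam1 -0.28 to 0.038, Eno1 -0.16 to 0.21, Pkm -0.12 to 0.44, Ldha -0.33 to 0.13, Ldhb -0.32 to 0.49, G6pdx -0.35 to 0.077, Pgd -0.14 to 0.24, Pgls -0.23 to 1.03, Taldo1 -0.12 to 0.24, Tkt -0.40 to 0.071, Rpia -0.31 to 0.084, Pygl -0.17 to 0.14 and Pgm2 -0.072 to 0.077.

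Family shares by counts, without length, were 78.6% for Slc2a3, 79.5% for Hk3, 81.5% for Pfkp, 91.0% for Pfkfb4, 99.5% for Eno1 and 99.6% for Ldha. Per base of the longest coding transcript, chosen after seeing the data, they were 67.2% for Slc2a3, 79.8% for Pfkp, 86.5% for Pfkfb4, 99.4% for Eno1, 99.4% for Ldha and 99.5% for Slc16a3. Low counts limit Pfkm, Ldhb, Pdk1, Aldoc and Pgls.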

Other observations

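Among 16 tested regulators of glucose use, edgeR called none, and 2 (12.5%) had an unadjusted p under 0.05, against 6.58% of all genes tested. Txnip, an arrestin-fold protein known to limit glucose uptake and to be induced by glucose, had 712, 741 and 704 CPM in polarized libraries A, B and C, against 822, 975 and 1003 in depolarized cells. Every depolarized library was above every polarized one, as 7.28% of all genes tested were. The fitted log2 difference was 0.30 (SE 0.17, 95% interval -0.07 to 0.67, edgeR adjusted p = 0.892), and without pair C it was 0.31 (edgeR adjusted p = 0.0292). Mlxip, a glucose-sensing transcription factor also called MondoA that is known to act on Txnip, had 23.4, 19.1 and 11.5 CPM against 9.91, 17.1 and 20.5. Its pair differences were -1.20, -0.16 and 0.81, so pairs A and C had opposite signs, and the fitted log2 difference was -0.26 (SE 0.28, edgeR adjusted p = 1). These 2 genes were picked after their values were seen.

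Without pair C, edgeR called 5 of 67 tested other pathway genes (7.46%), where it called 10.1% of all genes: Slc2a6 and Txnip higher, and Adpgk, Ppp1r3d and Mlxip lower. In pair C itself, by CPM without the TMM factors, Slc2a6, Txnip and Adpgk had the same sign as in that fit (0.24, 0.51 and -0.28). Ppp1r3d and Mlxip had the opposite one (0.34 and 0.81).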
